A study of Mus musculus with 11 samples.

Results

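On 172 probes of an Illumina MouseWG-6 bead array, signal fell when control mouse embryonic stem cells formed embryoid bodies, yet stood at the stem cell level in embryoid bodies that lacked connexin43 and connexin45. The 172 probes were chosen by measured values among the 45281 probes on the array. After quantile normalization and log2 transformation, a probe was taken when it was detected on all 4 stem cell arrays and all 4 deleted embryoid body arrays, at a detection p-value under 0.05. Its control embryoid body mean also had to lie at least 1 log2 unit (2-fold) below control stem cells. Its deleted embryoid body mean had to lie at least 1 log2 unit above control embryoid bodies and less than 0.5 from control stem cells. These 3 differences are therefore a description of the choice, and no test is given for them.

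Pluripotent stem cells renew themselves in culture with leukemia inhibitory factor, and when that factor is withdrawn and the cells aggregate in hanging drops they form embryoid bodies. During this change, transcripts of the pluripotent state are known to decline while an outer layer of primitive endoderm and then derivatives of the germ layers arise. Connexins are the channel subunits of gap junctions, which pass ions and small molecules between neighbouring cells. The series title names primitive endoderm formation in embryoid bodies without gap junctional communication as its subject. The identifiers of the probes were not paired with genes here, so the transcripts are described by probe, and neither their functions nor their sequences are given.

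The 11 arrays each measured total RNA of 1 sample of male C57BL/6 cells. Control stem cells (2 arrays) and control embryoid bodies (3 arrays) carried Cx43/45 flox alleles. Deleted stem cells (2 arrays) and deleted embryoid bodies (4 arrays) lacked exon 3 of Cx43 and of Cx45, and carried lacZ driven by the Cx43 promoter and eGFP driven by the Cx45 promoter. Every stem cell sample was a pellet from 1 well, grown with 1000 U/ml mouse leukemia inhibitory factor on feeder fibroblasts. Every embryoid body sample was a pool of about 300 bodies at day 6, started from 2000 cells per hanging drop without that factor. All 4 groups share sex, strain and serum, while the stem cell and embryoid body groups also differ in feeder layer and factor. Each genotype is 1 described line. The arrays of a group are described as biological replicates without saying whether cultures were separate, so the spread behind each p-value is that of these samples and may be partly technical. Connexin probes and cell type markers were not analysed here, so neither the deletion nor the cell types were checked on the arrays.

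Between 39.7% and 43.0% of probes were detected per array, and the mean deposited intensity ranged from 381 to 503 units, in arbitrary fluorescence units. The typical intensity of undetected probes, a measure of array background, was 106 to 111 units on deleted and 112 to 114 units on control embryoid body arrays, and 114 to 126 units on stem cell arrays. Because this background is part of every value, differences of dim probes are compressed.

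The choice narrowed in 3 steps. Of 14216 probes detected on all 8 required arrays, 1258 lay at least 2-fold lower in control embryoid bodies than in control stem cells. On 283 of these, deleted embryoid bodies lay at least 2-fold above control ones. Deleted embryoid bodies lay 0.5 or more above the control stem cell level on 31 of the 283 and 0.5 or more below it on 80, leaving 172. The members are 13.7% of these 1258 falling probes. Probes that went undetected on any deleted embryoid body array had already been left out. The shares are therefore not shares of all probes that fell in the control line. The largest class among the 1258 held 597 probes (47.5%) on which both kinds of embryoid body lay within 0.5 of each other. The remaining classes were 346 probes that were 0.5 to 1 higher and 32 that were at least 0.5 lower in deleted bodies.

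**Figure D1:**
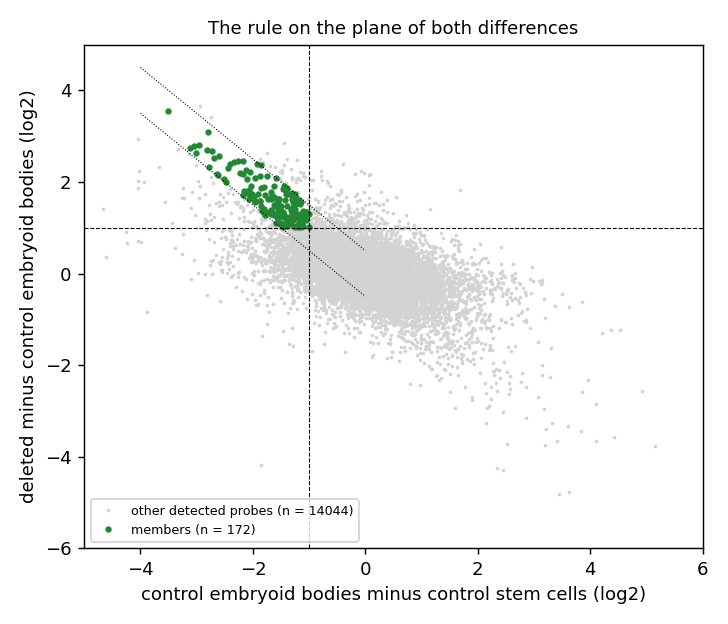
Each point is 1 probe detected on all stem cell and deleted embryoid body arrays, with the stage difference of the control line across and the line difference in embryoid bodies upward, both on the log2 scale. The 172 members (green) fill the corner set by the thresholds of 1 (dashed) and the band of 0.5 around the stem cell level (dotted), beside 14044 other probes (grey), of which 3 lie outside the axes; both axes use the control embryoid body arrays.

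Members were of middle to high brightness. Their mean intensity in control stem cells ran from 249 to 31025 units with a median of 1036. The median over the 23268 probes tested was 188. The choice nearly fixes this order. It asked for detection on more arrays, and for a fall that dim probes near background cannot show. The other classes of falling probes had medians from 589 to 2005 units, on both sides of the members' median. The 2 largest of these classes, of 597 and 346 probes, had medians of 741 and 828 units. Brightness was not compared further between classes. In control embryoid bodies the members' median was 341 units, and in deleted embryoid bodies 1020.4. The control line's fall over the members had a median of -1.50 on the log2 scale, a 2.82-fold fall, and reached at least 4-fold on 34 members. The excess of deleted over control embryoid bodies had a median of 1.47, or 2.77-fold, and reached 4-fold on 30. In a sample of mixed cells, fewer cells with a transcript and less of it per cell cannot be told apart.

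By array, the median member lay within 0.11 log2 units of the control stem cell level on each of the 4 deleted embryoid body arrays, at -0.09, -0.05, -0.11 and -0.01. The 3 control embryoid body arrays stood at -1.45, -1.42 and -1.75. The deleted stem cell arrays, whose levels the choice did not use beyond detection, stood at -0.25 and -0.08. Over all tested probes the same medians lay between -0.02 and 0.00 on every array. Before normalization, the deposited intensity of the median member was 865 to 1042 units on stem cell arrays. It was 269 to 403 on control embryoid body arrays and 936 to 1108 on deleted ones. The members were chosen on these same arrays, so these values describe the choice.

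**Figure D2:**
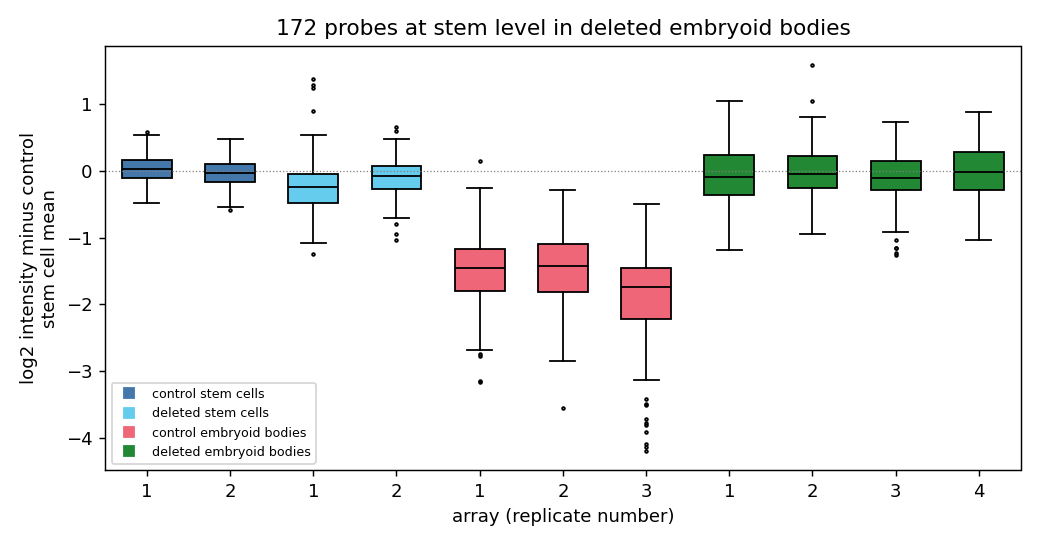
Boxes show, for each of the 11 arrays, the log2 normalized intensity of the 172 members minus their control stem cell mean (line, median; box, quartiles; whiskers, 1.5 times the interquartile range; points, members beyond them). The control embryoid body boxes centre between -1.75 and -1.42, and all 8 other boxes between -0.25 and 0.03.

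The 8 members with the largest line difference in embryoid bodies were examined array by array. ILMN_1249766 had the largest of all, with normalized intensities of 1579 and 1979.7 units on the control stem cell arrays, 1555 and 1958 in deleted stem cells, 199, 149.9 and 126 in control embryoid bodies and 1818, 1531, 1736 and 2249.8 in deleted embryoid bodies. Its control embryoid body signal was near background, with detection on 2 of 3 arrays, while the 3 other groups overlapped one another above 1500 units. The fitted difference between embryoid bodies was 3.55 on the log2 scale, an 11.7-fold excess in the deleted line whose size is limited by that background. ILMN_1231030 also dropped close to background in control bodies, at 148, 138 and 136 units, against 871 and 1141 in control stem cells and 776, 907, 801 and 1242 in deleted bodies. Its deleted stem cell arrays were uneven, at 572 and 1052 units, and the lower one lay beneath every deleted embryoid body array.

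ILMN_1244724 read 3598 and 3722 units in control stem cells, 3569.9 and 3724 in deleted stem cells, 566, 923 and 276 in control bodies and 4399, 3315, 5009.6 and 5519 in deleted bodies. The 4 stem cell arrays lay close together, whereas the control embryoid body arrays spread more than 3-fold. ILMN_2731407 was likewise low only in control bodies, with 2067 and 2918 units in control stem cells, 2357 and 2210.2 in deleted stem cells, 424, 349 and 215 in control bodies and 1646, 2540.1, 2327 and 2447 in deleted bodies. ILMN_2502226 was more even, at 1625 and 1964, then 1589.8 and 1631, then 313, 282 and 222, then 1607, 2106, 1344 and 1931 units for control and deleted stem cells and control and deleted bodies. Its control embryoid body arrays were at most 313 units and every other array was above 1300.

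The brightest of these 8 were ILMN_1228497, ILMN_3112268 and ILMN_1253387. ILMN_1228497 measured 9831 ± 532 (SD, n = 2) units in control stem cells, 9666 ± 1300.4 (SD, n = 2) in deleted stem cells, 1365 ± 764 (SD, n = 3) in control bodies and 8143 ± 555 (SD, n = 4) in deleted bodies. On all 3, control embryoid body replicate 3 was the lowest array, at 534, 455 and 533 units, while replicates 1 and 2 lay between 1145 and 2038. ILMN_3112268 held 5578, 6912, 5561 and 5826 units in deleted bodies against 6705 and 8941 in control stem cells. ILMN_1253387 held 5394, 5763, 5418 and 5880.4 units against 7633 and 7009. On ILMN_1253387 all 4 deleted embryoid body arrays lay below both control stem cell arrays, within the 0.5 that the choice allowed.

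**Figure D3:**
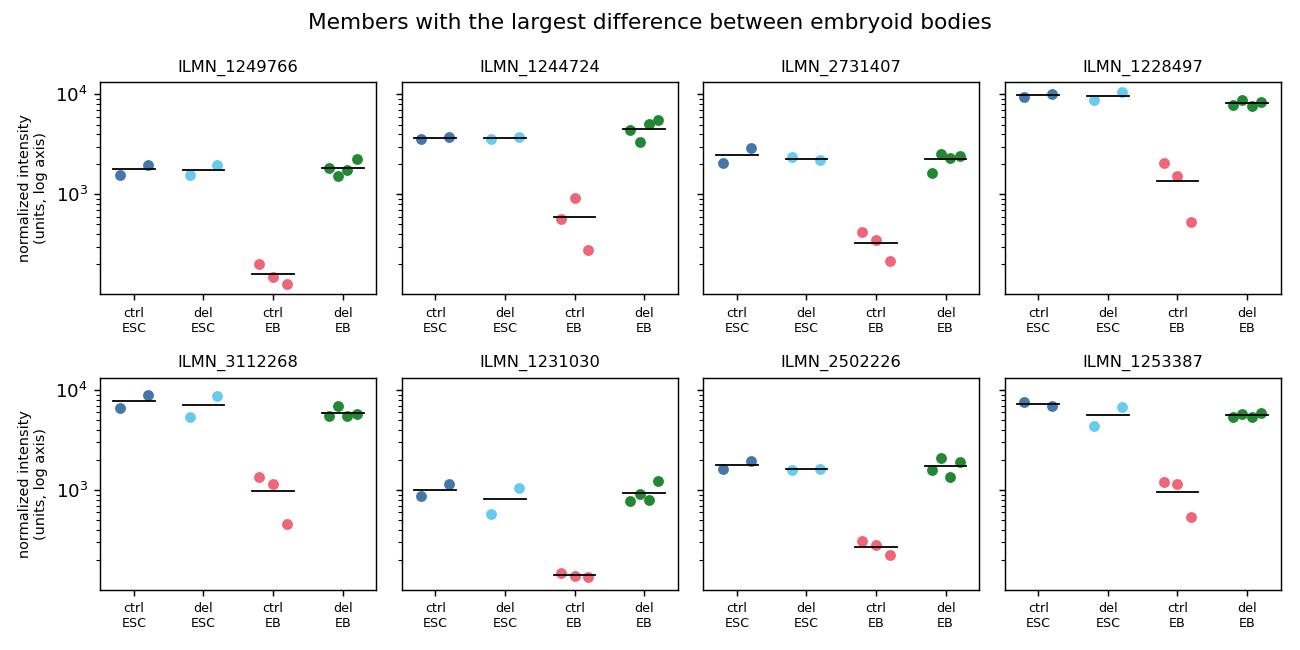
Points are the normalized intensities (log axis) of single arrays for the 8 members with the largest excess of deleted over control embryoid bodies, and lines are group means over 2, 2, 3 and 4 arrays. On each of the 8 the 3 control embryoid body arrays (red) lie below all 8 other arrays; ctrl and del name the control and deleted lines, ESC stem cells and EB embryoid bodies.

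Among the members brightest in control stem cells, ILMN_3090545 and ILMN_3018711 lay near the top of the scale, where the highest normalized value of any probe was 36386 units. ILMN_3090545 measured 29853 and 32196 units in control stem cells, 32196 and 32391 in deleted stem cells and 30306, 30866, 32622 and 28340 in deleted bodies. In control bodies it was uneven, at 19669, 13790.2 and 4772. ILMN_3018711 was uneven in the same arrays, at 20546, 13209 and 4687 units in control bodies, beside 23301 and 25837 in control stem cells and 31891, 33081, 33335 and 32861 in deleted bodies. On both probes, control replicate 3 lay more than 2-fold below the other control bodies, and replicate 1 lay less than 2-fold below the mean of control stem cells.

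Other bright members behaved more evenly. ILMN_2690603 stood at 11699 and 10689.7 units in control stem cells, 1249.7, 2129.7 and 1979.7 in control bodies and 7911, 11228, 10652 and 10471 in deleted bodies. ILMN_2773464 stood at 10761 and 9973 units in control stem cells, 2479, 2629 and 2888 in control bodies and 7288, 8699, 7526 and 8269 in deleted bodies. Its deleted stem cell arrays, at 7302 and 7495, were closer to the deleted bodies than to the control stem cells. The deleted minus control stem cell difference of ILMN_2773464 was -0.49 ± 0.11 (SE) on the log2 scale and did not pass the test described below (limma adjusted p = 0.51).

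The median replicate SD was largest in control embryoid bodies. The median log2 SD of a member was 0.31 there (n = 3), 0.22 in deleted bodies (n = 4), 0.22 in deleted stem cells (n = 2) and 0.19 in control stem cells (n = 2). Over all tested probes these medians were 0.13, 0.11, 0.12 and 0.10. A median SD from fewer arrays tends to be smaller, so the order of the groups is not read further. On 33 members the control embryoid body arrays differed by at least 2-fold among themselves, and on 15 the deleted ones did. Control replicate 3 was the lowest of its group on 120 members, replicate 1 on 36 and replicate 2 on 16. Taken alone, replicate 1 lay at least 2-fold below control stem cells on 150 members, replicate 2 on 140 and replicate 3 on 162. All 4 deleted embryoid body arrays lay above all 3 control ones on 169 members, and on 16.7% of all probes tested. The exceptions were ILMN_1259069, ILMN_2530127 and ILMN_2538242. All control bodies lay below all control stem cell arrays on 171 members, and on 30.3% of all probes tested. These counts follow from the choice of members and are not read further.

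The edges of the choice hold members of different reliability. Nearest inside the threshold on the control line's fall were ILMN_1259069 at -1.002 and ILMN_2650392 at -1.01, and nearest outside it were ILMN_1251870 at -0.998 and ILMN_2942353 at -0.99. ILMN_1259069 owed its place to 1 array, as its control bodies read 1386, 1030.5 and 172 units beside 1640.1 and 959.5 in control stem cells. On the threshold between embryoid bodies, ILMN_2836494 and ILMN_2677772 lay just inside, both at 1.01, with ILMN_2721198 at 0.99 and ILMN_2485323 at 0.98 just outside. On the closeness to stem cells, ILMN_3152061 at 0.498 and ILMN_1217100 at 0.49 lay inside, with ILMN_2775360 at 0.501 and ILMN_2662160 at -0.51 outside.

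A stricter subset was described after its values were seen. On 48 members, every single control embryoid body array was at least 2-fold below the control stem cell mean, and every deleted embryoid body array was within 0.5 of that mean and at least 2-fold above the mean of control bodies. On 37 of these, both deleted stem cell arrays were also within 0.5 of control stem cells. The 37 had control stem cell means from 350.2 to 16101 units, and their median difference between the stem cell lines was -0.10, which the last condition keeps small. In the test of deleted bodies against deleted stem cells described below, 3 of the 37 were called higher, ILMN_2749037 among them, and 0 lower. Over all probes tested, 10.5% were called higher and 11.8% lower. The 37, called or not, include ILMN_1249766, ILMN_1228497, ILMN_2502226, ILMN_2690603 and ILMN_2749037. ILMN_2769832 is also among the 37. It read 5327 and 5962 units in control stem cells, 1743, 1239 and 373 in control bodies and 5628, 4798, 6561 and 5352 in deleted bodies.

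Because the means of 3 groups entered the choice, each array was also measured on probes chosen without it. The rule was applied to the other 10 arrays, normalized among themselves, and the array left out was mapped onto their intensity distribution. Each deleted embryoid body array then stood at a median of -0.14 (replicate 1), -0.10 (replicate 2), -0.11 (replicate 3) and -0.02 (replicate 4) from control stem cells, over 169 to 174 probes. On 79.9% to 89.6% of those probes the array left out lay at least 2-fold above control embryoid bodies, and on 72.8% to 79.9% it lay within 0.5 of control stem cells. Control embryoid body arrays left out in the same way stood at -1.35, -1.29 and -1.64 over 183, 209 and 158 probes. They lay at least 2-fold below control stem cells on 72.7%, 67.0% and 82.9%. Left-out control stem cell arrays stood at 0.03 and -0.10. Over all detected probes the same medians lay between -0.03 and 0.00. The shares above were not taken over all probes, so no background stands beside them. They are not read as a result about the members. These values describe single arrays, and the arrays left out still share the line and culture conditions of those that chose the probes.

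**Figure D4:**
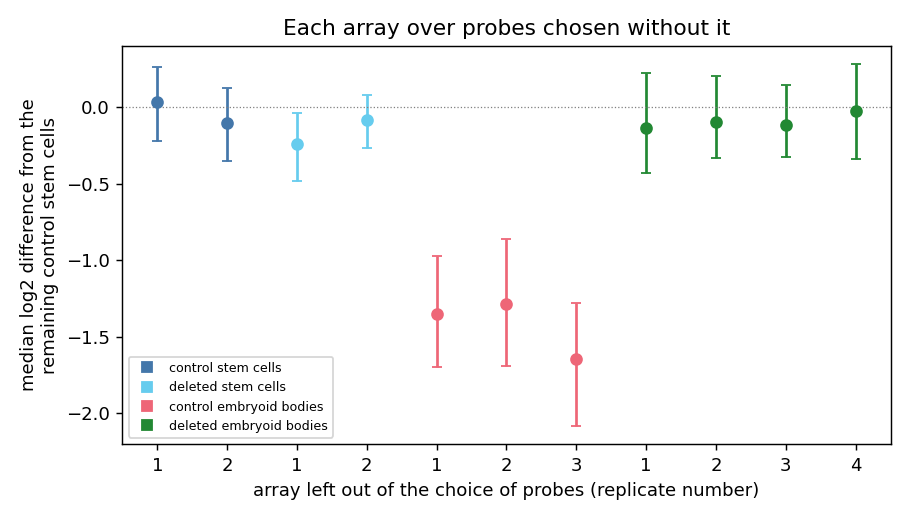
Points are medians, with bars to the quartiles, of the log2 difference between 1 array and the remaining control stem cell arrays over the probes chosen without that array (156 to 209 probes). The 4 deleted embryoid body arrays lie between -0.14 and -0.02 and the 3 control ones between -1.64 and -1.29.

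Embryoid bodies were next compared with stem cells within the deleted line, which asks whether the members' level moved with stage when the connexins were absent. The deleted stem cell intensities did not enter the choice beyond detection, but the deleted embryoid body intensities did. A linear model with 4 group means was fitted with limma to all 11 arrays and all 23268 probes detected on at least 2 arrays, and a probe was called when its Benjamini-Hochberg adjusted p over these probes was under 0.05. All 172 members were among the probes tested. Of the members, 12 (6.98%) were called higher in deleted embryoid bodies, 3 (1.74%) were called lower and 157 were not called. Over all probes tested, 10.5% were called higher and 11.8% lower, so the members' share lay below the background in both directions. The order for higher calls turned with median scaling (10.5% of members, 9.56% of all), with replicate number as a block (8.14% and 7.54%) and without deleted stem cell replicate 2 (5.81% and 4.87%). The choice required deleted bodies to lie near the level of control stem cells, which keeps large differences out of this comparison.

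The members' difference between stages in the deleted line had a median of 0.11 on the log2 scale, with quartiles of -0.11 and 0.36 and a range of -1.08 to 0.96. Over all probes tested the median was 0.02, with quartiles of -0.17 and 0.21. The members' difference was smaller than 0.5 in either direction on 133, at least 0.5 upward on 32 and at least 0.5 downward on 7. Given the quartiles over all probes, differences under 0.5 were common on the array. The 133 are therefore not read as a trait of the members. All deleted bodies lay above all deleted stem cell arrays on 39 members and below them on 9, where 23.2% and 20.9% of all probes tested did so. On the same 39 members all control bodies also lay below all control stem cell arrays, a joint condition met by 2.2% of all probes, whose control line condition the choice nearly fixes. A missed threshold does not show equal levels. The 95% confidence interval lay wholly within 1 log2 unit of 0 on 128 members and within 0.5 on 26, and its median half-width was 0.48. Among the 8 members with the largest line difference, ILMN_1249766 had an interval of -0.40 to 0.51, ILMN_2502226 one of -0.32 to 0.52 and ILMN_1228497 one of -1.15 to 0.66.

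The 4 members called higher with the largest change were ILMN_2776165, ILMN_2909346, ILMN_2752545 and ILMN_2749037. ILMN_2776165 rose from 1069 and 1302 units in deleted stem cells to 1924, 1645, 2336 and 2521 in deleted bodies, without overlap, by 0.82 ± 0.17 (SE) on the log2 scale (limma adjusted p = 0.0074). ILMN_2749037, the third brightest member, rose from 11699 and 13638 to 18325, 20986, 22568 and 22442 units, by 0.73 ± 0.16 (SE, limma adjusted p = 0.0097). In the control line ILMN_2749037 stood at 17603 and 14599 units in stem cells and 4589, 5962 and 4005 in bodies. All 4 deleted embryoid body arrays lay above both stem cell groups on this probe.

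ILMN_2909346 rose from 551 and 796 to 1327, 1067, 1332 and 917 units, by 0.79 ± 0.23 (SE, limma adjusted p = 0.031). The dim ILMN_2752545 rose from 239 and 240.0 to 559.6, 414, 431 and 288 units, by 0.78 ± 0.22 (SE, limma adjusted p = 0.028), and was detected on 1 of 3 control embryoid body arrays. The other 8 members called higher changed by 0.49 to 0.72. All 12 had a lower mean in deleted than in control stem cells. The choice, which held deleted bodies less than 0.5 above control stem cells, all but fixes that order for rises of this size. Without deleted stem cell replicate 1, 6 members were called, 3 higher and 3 lower, and 3 of the original 15 calls remained, while 20.3% of all probes were called. The 12 differences then ran from 0.33 to 0.81 with a median of 0.57, against 0.64 with all arrays, and that group had 1 array left. Median scaling in place of quantile normalization gave 18 members higher and 0 lower, beside 9.56% of all probes higher and 8.29% lower.

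The 3 members called lower were ILMN_2999439, ILMN_2739645 and ILMN_2792362. ILMN_2999439 fell from 1402 and 739 units in deleted stem cells to 722, 459.9, 525 and 677 in deleted bodies, by 0.80 ± 0.25 (SE, limma adjusted p = 0.042). Its first stem cell array stood apart, and without it the difference was -0.34. ILMN_2739645 fell from 425 and 501 to 262, 335, 346 and 371 units (adjusted p from limma 0.037). ILMN_2792362 fell from 1051 and 1162 to 832, 892, 745 and 814 units, by 0.43 ± 0.10 (SE, limma adjusted p = 0.014). On the last 2 probes every deleted body lay below every stem cell array of either line and above every control body.

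**Figure D5:**
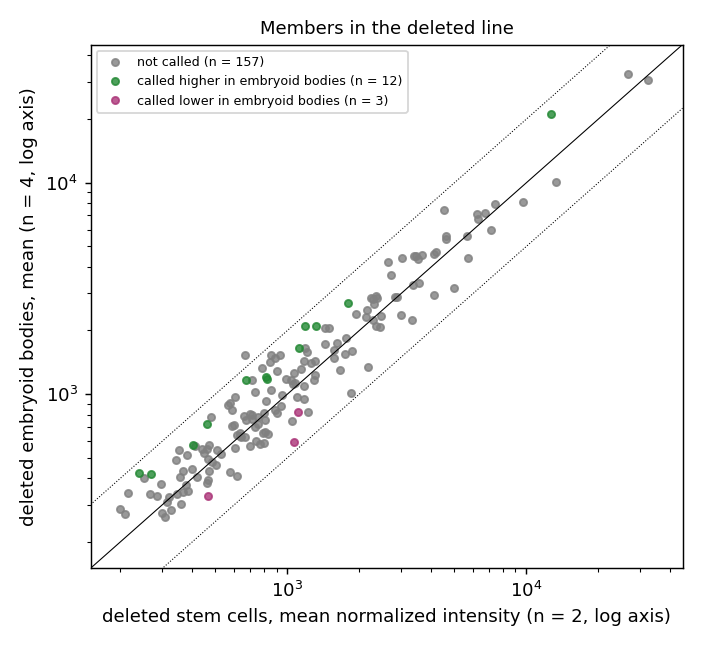
Each point is 1 of the 172 members, with its mean normalized intensity in deleted stem cells across and in deleted embryoid bodies upward, both on log axes. The solid line marks equal levels and the dotted lines a 2-fold difference; 12 members called higher are green, 3 called lower purple and 157 not called grey.

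The same comparison over the neighbouring classes of the 1258 falling probes gave other counts. Of the 597 probes on which both lines' bodies lay alike, 429 (71.9%) were called lower in deleted bodies than in deleted stem cells and 0 higher. Of the 346 probes that were 0.5 to 1 higher in deleted than in control bodies, 134 (38.7%) were called lower. All 32 probes that were at least 0.5 lower in deleted than in control bodies were called lower. Of the 80 probes with deleted bodies at least 2-fold above control bodies but 0.5 or more below control stem cells, 34 (42.5%) were called lower. Of the 31 probes on which deleted bodies lay 0.5 or more above control stem cells, 20 (64.5%) were called higher. The classes were cut on the deleted embryoid body level, which also enters these counts, so they are given as a description.

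The stem cells of the 2 lines were compared to see whether the members differed before differentiation. Of the 172 members 0 were called by limma, and 0% of all probes tested were called, with a smallest adjusted p of 0.51. At an unadjusted p under 0.05 there were 11 members (6.40%), 10 of them lower in deleted stem cells, beside 2091 probes in all (8.99%). The trended robust variant of limma also gave 0 calls, with 10 members at the unadjusted level. The unadjusted share of members lay above that of all probes when the stem cell groups were fitted alone (19 of 172 members, against 1124 probes, 4.83%) and with replicate number as a block (18 members, 10.5%, against 8.02%), also with 0 calls. The members' median difference was -0.16 on the log2 scale, against -0.01 over all probes tested, and 132 of 172 had a lower mean in deleted stem cells. On 152 members the difference was smaller than 0.5, and the members' quartiles were -0.34 and -0.01. Over all probes tested the quartiles were -0.14 and 0.11. Differences under 0.5 were therefore common on the array, and the 152 are not read as a trait of the members. On 124 members the 95% confidence interval lay within 1 log2 unit of 0, so differences of 2-fold were not excluded on the rest. The control stem cell arrays entered both this difference and the choice of members.

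The 2 deleted stem cell arrays differed in this. Deleted stem cell replicate 1 lay within 0.5 of control stem cells on 126 members and replicate 2 on 153. The same counts were not taken over all probes. Without replicate 1 the median difference was -0.08, and without replicate 2 it was -0.25, with 2 members called lower. Among the neighbouring classes the median difference between the stem cell lines was -0.31 where both kinds of body fell alike. Where deleted bodies were 0.5 to 1 higher than control ones it was -0.29. It was -0.28 where deleted bodies lay at least 2-fold above control bodies but 0.5 or more below control stem cells. Where they stood 0.5 or more above the stem cell level it was -0.01. It was 0.20 where they were at least 0.5 lower than control bodies. No test was made of these differences between classes.

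The 4 members with the largest difference between the stem cell lines, in either direction, did not pass. ILMN_2899041 was higher in deleted stem cells, at 2235 and 1440.4 against 781 and 1073 units, with a difference of 0.97 ± 0.62 (SE, limma adjusted p = 0.65). Its deleted bodies were uneven, at 428, 1897, 1194 and 533 units. ILMN_2917386 was also higher, at 2864 and 1488 against 844 and 1440.4 units, with the 2 deleted arrays nearly 2-fold apart. ILMN_1259069 was lower in deleted stem cells, at 528 and 805 against 1640.1 and 959.5 units, and so was ILMN_2538242, at 685 and 875 against 1799.7 and 1135.

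Detection in control embryoid bodies was not part of the choice, although low intensity there was. On 154 members all 3 control embryoid body arrays were detected, on 15 members 2 arrays and on 3 members 1 array. No member was undetected on all 3. The 3 detected on 1 array were ILMN_2513922, ILMN_2717580 and ILMN_2752545, with control embryoid body values of 105 to 133 units. Signal above background therefore remained in control bodies on most members. Members dim in control stem cells showed the smaller difference, with a median of -1.26 on the log2 scale for the 32 members under 500 units and -1.80 for the 45 above 2000 units. All 45 of the latter were detected on every control embryoid body array, against 17 of the 32.

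Array background moved with the groups, as given above, and was lowest on deleted embryoid body arrays. Its part in the result was not tested, and only the members' values after background correction are given. After limma's neqc background correction all 172 members still met both 2-fold conditions, with medians of -2.14 for the control line's fall and 2.06 for the difference between embryoid bodies. These conditions had chosen the members on the same arrays, and the correction widened both differences, so meeting them again was nearly fixed beforehand. On closeness, 156 remained within 0.5 of control stem cells. After median scaling, 163 still met the condition on the fall, 172 that on the difference between bodies and 148 that on closeness.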

How the data were processed

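RNA of 11 samples was hybridized to Illumina MouseWG-6 arrays. The authors processed the scans in GenomeStudio 2011.1 (Gene Expression module 1.9.0) and quantile normalized the raw values, per the design text deposited with the labels. The deposited intensity used here is the version before that normalization, and its array means differ. The deposited detection p-value ranks each probe against negative controls. The sources used here do not say whether background was subtracted, but undetected probes typically read 106 to 126 units, so background remained in the values. All 22 value columns matched 1 sample title each.

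For this work, quantile normalization over all 11 arrays was followed by a log2 transformation without an offset. Of 45281 probes, the 23268 detected (p under 0.05) on at least 2 arrays entered limma 3.58.1 in R 4.3.3, with 4 group means, default moderation and Benjamini-Hochberg adjustment over all of them. The other 22013 were not tested. Fits and rule were tested on simulated data. Standard errors and intervals are limma's. The number of arrays limits the precision.

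The members and the lists were chosen with earlier results of these data known. Named members are the 8 with the largest difference between embryoid bodies, the 6 brightest and the 4 with the largest stem cell line difference. Up to 4 called in each direction, and the 2 probes on each side of every threshold, were added. ILMN_2530127, ILMN_2769832, ILMN_2513922 and ILMN_2717580 were named after their values were seen. Gene lists were not used, because probes were not paired with genes. Alternatives were median scaling, neqc (offset 16), other detection filters and thresholds, the compared groups alone, a replicate block, trended robust moderation and leaving out each array, with renormalization.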

Additional observations from a re-analysis of the deposited data

Results flagged for a closer look

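In 1 of 35 sets of 4 deleted embryoid body arrays examined (34 members and probes at the edges of the choice, and the median member), 1 array stood apart. Chance alone sets 1 array apart in about 1 of 20 such sets. On ILMN_2677772 the gap over the range, on the log2 scale, was 0.839, from replicate 4 at 419 units against 628 to 678.

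On 39 of the 172 members every control embryoid body array lay below every control stem cell array while every deleted embryoid body array lay above every deleted stem cell array. Over all probes tested this held on 2.2%, but the choice of members nearly fixes its first condition. The second alone held on 39 members and 23.2% of all probes, and the reverse, every deleted body below every deleted stem cell array, on 9 members and 20.9% of all probes. The difference between the lines was not tested on these, because the control line's fall chose the members.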

How the results depend on the processing

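The number of members was 433 with neqc, 287 at a fold threshold of 0.8 and 114 at a closeness of 0.3. It was 123 to 205 under the other changes of the rule and scaling, and 156 to 209 without 1 array. Without control stem cell replicate 2, 134 of the 172 were chosen again, and without deleted stem cell replicate 2 all 172. In the deleted line's stage comparison, 7 members (4.07%) were called with neqc, where 23.2% of all probes were, and 8 (4.65%) without a detection filter, where 10.1% were. The count was 6 to 17 without 1 array, lowest without deleted stem cell replicate 1 (3.49%, against 20.3% of all probes), and 9 without deleted embryoid body replicate 3 (5.23%, against 17.7%). All probes called numbered 2618 to 5526 without 1 array, lowest without deleted stem cell replicate 2. The members' median difference was 0.27 under median scaling and 0.049 to 0.213 without 1 array. Between the stem cell lines, leaving out 1 array gave 0 to 496 calls over all probes and 0 to 2 among members, the highest of each without deleted replicate 2, and 27 over all probes without control replicate 2. The lone array left in a group is assumed to vary like the other groups. The cause of these shifts was not tested.

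Replicate numbers are shared by the groups, but no label says that a number marks a common culture. Deviations of arrays with the same number correlated at 0.12 and 0.18 between deleted bodies and deleted stem cells and at -0.02 between the stem cell lines. With the replicate block, 15 members were called, 14 higher and 1 lower, and 9 of the original 15 calls remained. Over all probes there were 3556 calls (15.3%).

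Over 28 named members and 18 alternatives each, 444 of 504 differences between stages in the deleted line kept direction and call, 38 lost and 7 gained a call. All 7 named members with a call lost it under at least 1 alternative. The remaining 15 changed sign, none of them with a call. Under median scaling these were 0.12 for ILMN_2731407 and 0.29 for ILMN_3090545. With the replicate block they were 0.013 for ILMN_2731407, 0.046 for ILMN_1228497, 0.066 for ILMN_3112268 and 0.23 for ILMN_3090545. Without 1 array, ILMN_2731407 ranged from -0.12 to 0.094, ILMN_3112268 from -0.57 to 0.14, ILMN_1249766 from -0.11 to 0.22 and ILMN_1231030 from -0.20 to 0.68. ILMN_1253387 ranged from -0.29 to 0.36, ILMN_2836494 from -0.073 to 0.15, ILMN_1217100 from -0.029 to 0.32 and ILMN_2502226 from -0.00043 to 0.21.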

Other observations

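Some members shared an uneven pattern over single arrays, seen after the values were known and not tested. ILMN_1259069 and ILMN_2538242 were both high in control embryoid body replicates 1 and 2, at 1386 and 1030 units for the first and 1108 and 852 for the second, and low in replicate 3, at 172 and 165 units. Both were also uneven in deleted bodies, at 2605, 2125, 564 and 823 and at 1823, 1589.8, 643 and 1267 units. On ILMN_1259069 the deleted bodies of replicates 1 and 2 stood above both control stem cell arrays and those of replicates 3 and 4 stood below both. The log2 mean of these 4 arrays nonetheless lay 0.013 above that of control stem cells, so a mean near the stem cell level does not show that every sample was near it.

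ILMN_2899041 was a further member of this kind, with deleted bodies at 428, 1897, 1194 and 533 units around a mean close to the control stem cell value of 927 ± 206 (SD, n = 2). Deleted embryoid body arrays differed by at least 2-fold among themselves on 15 of the 172 members. On 18 members control embryoid body replicate 3 lay at least 2-fold below the log2 mean of the other control bodies.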
